A study of Mus musculus with 12 samples.

Results

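Mitochondrial ribosomal proteins were followed through the normal and leukemic marrow cells of this series by the expression of their genes. Members were the genes whose symbol begins with Mrpl or Mrps and a number, without pseudogenes. A mean of at least 1 FPKM (sequenced fragments scaled to transcript length and a factor for each library) over the 12 libraries was required. Of 24107 genes in the table, 78 carried such a symbol and 77 were kept, 48 of the Mrpl and 29 of the Mrps series. The gene left out, Mrpl53, was listed at 0 in every library. The lowest value of a member in any library was 2.34 FPKM (Mrps36), so that the filter on low values removed none of the 77.

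The mitochondrial ribosome, or mitoribosome, is the machine inside mitochondria that translates the few respiratory chain subunits still encoded by mitochondrial DNA. Its RNA is made from that DNA, but all of its proteins are encoded in the nucleus and imported, and they assemble into a large subunit, which joins amino acids, and a small subunit, which reads the messenger RNA. Many of these proteins descend from bacterial ribosomal proteins, and others occur in mitochondria only. Red cell precursors depend on active mitochondria, where the first and last steps of heme synthesis take place.

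The 12 RNA libraries, 3 in each of 4 groups, were made from marrow cells of C57BL/6 mice. Control megakaryocyte-erythroid progenitors (MEP), which give rise to platelets and red cells, and control whole marrow were taken from mice of the wild type. The leukemic MEP and the GFP+ marrow cells had the genotype Prdm16s and were isolated from recipients with leukemia. Prdm16s is a short form of the zinc-finger protein Prdm16 that lacks its PR domain. The ages of the mice, the way Prdm16s was introduced, and what cells the recipients kept of their own were not stated in the labels. The genotype, the leukemia and the state of being a recipient went together in these groups and cannot be told apart. Nor can fewer cells of a type and less RNA per cell be told apart in such bulk samples. Whether the 3 libraries of a group stem from different mice is not stated either, so p-values measure only the spread between samples, which may be technical.

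Depth was uneven: 10 libraries held 6.72 to 9.71 M reads, leukemic MEP 3 held 0.572 M and GFP+ marrow 2 held 1.15 M. A member had a median of 33 reads in leukemic MEP 3 and 85 in GFP+ marrow 2, against 533 to 1243 in the others, and the lowest member in leukemic MEP 3 rested on 1 read. Leukemic MEP 3 stood apart in its markers as well. The 12 granulocyte markers summed to 1026, 2479 and 100430 FPKM in leukemic MEP 1, 2 and 3, none of them at 0. The sum was 27.5 to 403 across control MEP libraries and 77286 or more in every marrow library. The 10 erythroid markers summed to 1432, 1877 and 188 FPKM in the same leukemic libraries, against 1843 to 2322 in control MEP. The 10 megakaryocyte markers summed to 5725, 4689 and 316, against 10.7 to 126. Sums do not show the level of most erythroid markers. Their median log2(FPKM + 1) was 6.77, 7.01 and 6.85 for the control MEP libraries. It was lower in all leukemic libraries, at 4.26, 4.60 and 3.91 for replicates 1, 2 and 3. With replicate 3 left aside, 8 of the 10 genes lay below every control MEP library and 1 lay above. Xist, chosen after its values were seen, was at 39.2 to 57.1 FPKM in replicates 1 and 2 of both Prdm16s groups and at 0.0904 or below in the other 8 libraries. Without leukemic MEP 3, the level of Xist thus goes together with the MEP groups and cannot be told apart from them. The main counts and medians for MEP are therefore given with and without leukemic MEP 3. Some single genes are also given without it, and others by their values in every library.

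The promoters of 4 members are shown because 3 of them, Mrps22, Mrps18b and Mrpl50, had the smallest p in the comparison of leukemic with control MEP, and the fourth, Mrpl44, had the smallest change. Mrps22 and Mrps18b are proteins of the small subunit at places that only the mitoribosome has, and Mrpl50 and Mrpl44 are such proteins of the large subunit. Each sequence holds the 250 bases before the gene's start, 5′ to 3′ on the strand of the gene, from RefSeq on GRCm38.p6. They lie at chr9:98601680-98601929 (minus strand), chr17:35916441-35916690 (minus), chr4:49521084-49521333 (minus) and chr1:79775768-79776017 (plus). Capitals mark a match to CCGGAAGT, bound by ETS factors such as GABP, in Mrps22, and to GCGC, any 2 bases and GCGC again, bound by NRF1, in Mrpl44.
Mrps22: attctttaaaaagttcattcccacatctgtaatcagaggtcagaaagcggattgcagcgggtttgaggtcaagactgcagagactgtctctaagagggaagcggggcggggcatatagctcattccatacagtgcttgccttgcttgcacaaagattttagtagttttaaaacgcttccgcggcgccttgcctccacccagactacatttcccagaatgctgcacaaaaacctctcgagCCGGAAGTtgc
Mrps18b: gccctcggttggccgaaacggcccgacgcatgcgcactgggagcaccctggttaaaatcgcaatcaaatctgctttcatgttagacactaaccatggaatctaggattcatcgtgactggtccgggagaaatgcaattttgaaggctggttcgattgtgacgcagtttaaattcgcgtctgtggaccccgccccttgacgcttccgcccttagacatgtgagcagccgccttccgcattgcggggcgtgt
Mrpl50: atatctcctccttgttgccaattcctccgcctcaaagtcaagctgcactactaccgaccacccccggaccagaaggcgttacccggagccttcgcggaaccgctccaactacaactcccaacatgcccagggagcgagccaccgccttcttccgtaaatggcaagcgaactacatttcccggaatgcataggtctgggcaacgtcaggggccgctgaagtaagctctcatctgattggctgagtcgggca
Mrpl44: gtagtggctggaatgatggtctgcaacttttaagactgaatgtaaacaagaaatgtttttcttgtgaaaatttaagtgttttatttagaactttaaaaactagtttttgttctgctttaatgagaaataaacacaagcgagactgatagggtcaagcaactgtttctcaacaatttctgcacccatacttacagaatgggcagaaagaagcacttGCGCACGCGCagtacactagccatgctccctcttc
GABP and NRF1 are transcription factors known for driving nuclear genes of mitochondria. The match began 11 bases before the start in Mrps22 and 35 bases before it in Mrpl44, and the windows of Mrps18b and Mrpl50 held none of the 5 motifs searched.

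Over the window of 250 bases before to 50 after the start, RefSeq gave 74 promoters for 68 of the 77 members. The GABP motif, searched on both strands, was in 12 of the 74 (16.2%), in 3.89% of all 32851 mouse promoters of that length and in 8.57% of the 11582 promoters of tested genes. The NRF1 motif was in 14 (18.9%), against 6.23% of all and 13.3% of those of tested genes. AAGATGGC, bound by YY1, was in 12 (16.2%), against 2.75% and 4.68%, and 8 of its 12 matches began after the start. The E-box CACGTG, which MYC can bind, was in 9.46%, against 7.15% and 10.3%, and the TATA box TATAAA in 6.76%, against 13.6% and 7.12%. The 7 promoters with the E-box include 3 of Mrpl2. By gene it was in 5 of 68 members (7.35%), against 12.1% of 9173 tested genes with a promoter. Median GC content was 58.5% in the members' promoters, 60.3% in those of tested genes and 52.7% in all. These shares describe letters in a window and were not tested. Among 26 members with a promoter that fell in leukemic MEP, 5 held the GABP motif, 4 the NRF1 motif, 6 the YY1 motif, 4 the E-box and 1 the TATA box. Among the other 42, these numbers were 7, 10, 6, 1 and 4. Of the 9173 tested genes, 9.82%, 15.5%, 5.64%, 12.1% and 8.57% held these motifs in the same order.

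Members were expressed in every library, and control MEP had the highest mean for 71 of the 77. The median member was at 69.9, 113.7 and 101.3 FPKM in control MEP 1, 2 and 3, and at 62.4, 64.7 and 34.1 in leukemic MEP. It was at 50.3, 69.1 and 63.2 FPKM in control marrow and at 54.1, 54.3 and 49.2 in GFP+ marrow. Each control MEP library thus lay above each leukemic MEP and marrow library, control MEP 1 by the least margin (69.9 against 69.1 in control marrow 2). The lowest group mean of a member was in leukemic MEP for 38 genes, in GFP+ marrow for 29, in control marrow for 9 and in control MEP for 1.

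The most abundant members by mean over all libraries were Mrpl18, Mrpl28 and Mrpl12, and the least abundant were Mrpl23, Mrps36 and Mrps31. Mrpl18, a large subunit protein with a bacterial counterpart, was at 269, 421 and 360 FPKM in control MEP, at 205, 218 and 134 in leukemic MEP, at 207, 267 and 240 in control marrow and at 211, 225 and 149 in GFP+ marrow. Mrpl28, another such protein, was at 285, 472 and 363, at 211, 177 and 101, at 192, 258 and 265, and at 186, 158 and 197 FPKM in the same order. In both genes all leukemic MEP libraries lay below all control MEP libraries, and the marrow groups overlapped. Mrpl23 was at 4.61, 13.9 and 7.44 FPKM in control MEP and at 5.40, 6.94 and 2.88 in leukemic MEP, and at 2.53 to 6.84 across the marrow libraries. Mrps36 was at 6.75, 19.7 and 17.4 and at 8.40, 7.18 and 2.34, and at 3.79 to 12.9 in marrow. Its place in the mitoribosome is unsettled, since it is also known as a component of the 2-oxoglutarate dehydrogenase complex. The groups of Mrpl23 and of Mrps36 overlapped. The low library of a group was shared by most members. Control MEP 1 was the lowest control MEP library for 71 members, leukemic MEP 3 the lowest of its group for 70 and control marrow 1 for 68.

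**Figure D1:**
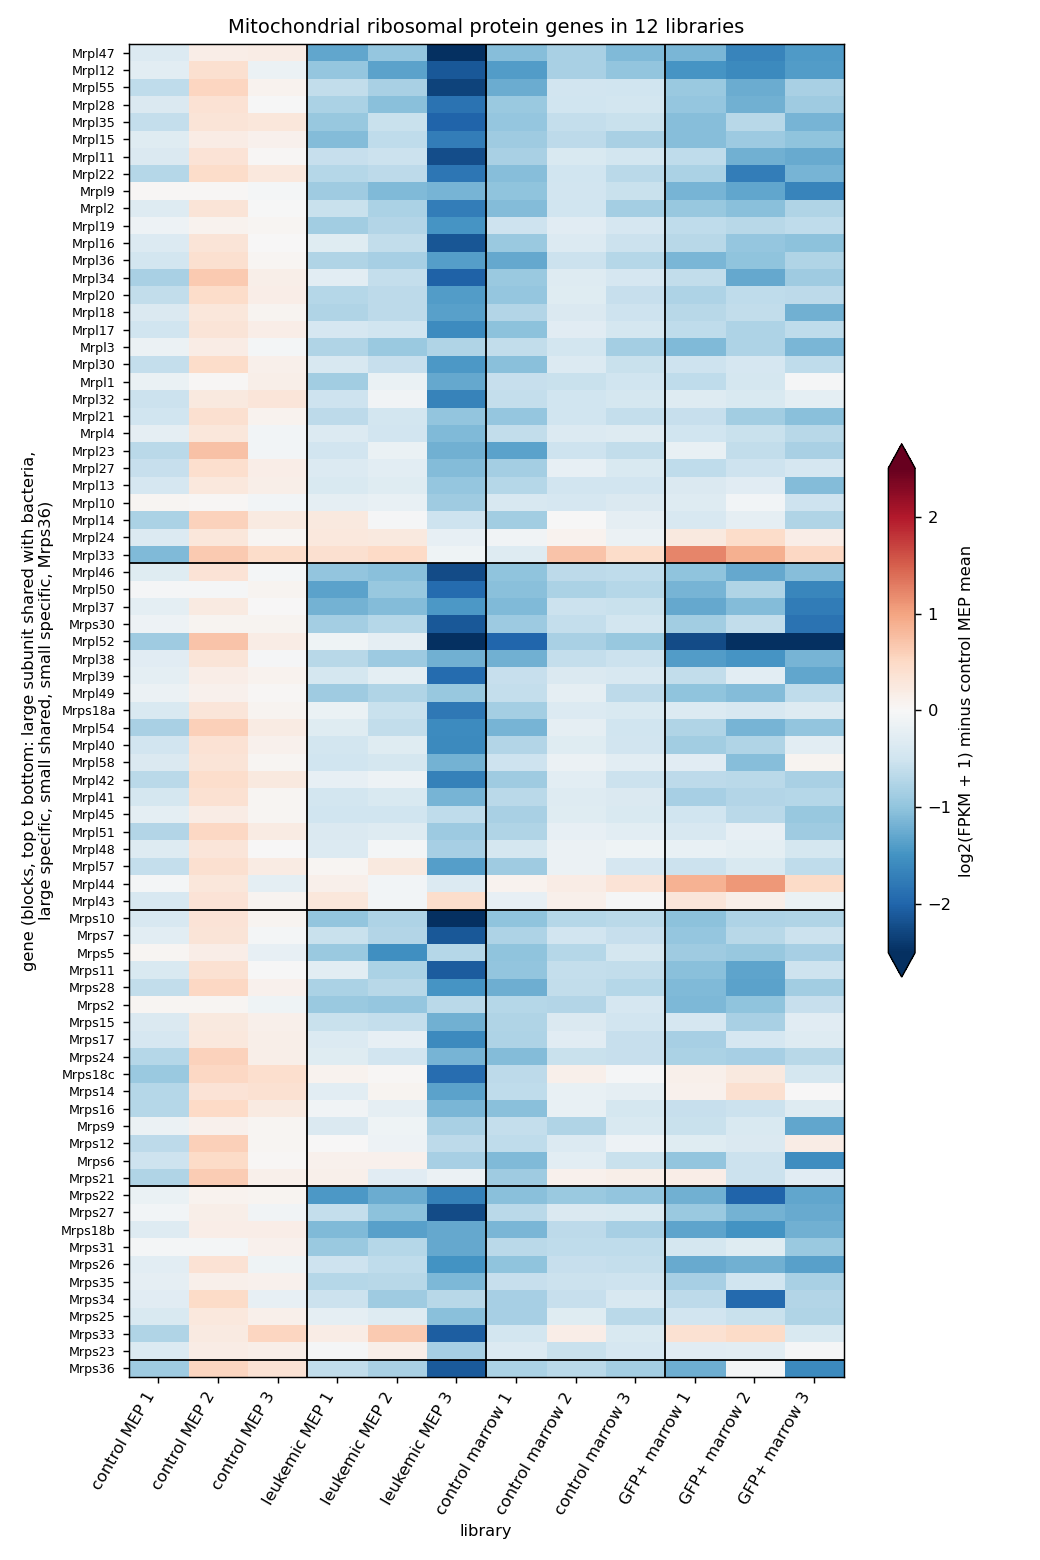
Heat map of log2(FPKM + 1) of 77 genes (rows, in blocks by subunit and by whether a bacterial counterpart exists, ordered by change in MEP) in 12 libraries (columns), minus the gene's mean in control MEP. Colours reach their limit at 2.5 log2 units in either direction. The leukemic MEP columns are mostly blue, leukemic MEP 3 most deeply, and the rows of Mrpl44 and Mrpl33 are redder in GFP+ marrow.

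The comparison of leukemic with control MEP asks how the leukemic progenitors differ from normal ones. Of the 77 members 31 fell (40.3%) and 0 rose (limma on log2(FPKM + 1), Benjamini-Hochberg adjusted over 11462 genes), where 12.3% of all tested genes were called lower and 13.7% higher. In this comparison 48 members, all lower, had an unadjusted p below 0.05 (38.1% of tested genes in either direction). Of 11462 tested genes, 2123 were lower at that p and 2241 higher. Voom on whole reads called 26 members lower and 0 higher (13.4% and 16.2% of tested genes). The median member changed by -0.83 log2 units, a 1.78-fold lower level, and the median of all tested genes by 0.02. The change was below 0 in 74 of 77 members, against 49% of all tested genes. Without leukemic MEP 3 it was below 0 in 67 members, against 5537 of 11342 tested genes. In 35 members every leukemic library lay below every control library, against 19.7% of tested genes, and in 0 above (21.1%), and 29 of the 31 that fell were among them. Because 1 is added before the logarithm, fold changes of low genes are understated. Values after ± are standard errors for changes and SD for means.

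Without leukemic MEP 3, 24 members fell (31.2%, against 12.3% of 11342 tested genes) and 0 rose (15.1% of tested genes), all 24 of them among the 31, and the median member changed by -0.50, a 1.41-fold lower level. The 7 calls lost were those of Mrpl35, Mrpl20, Mrpl55, Mrps30, Mrps26, Mrps28 and Mrps15. Leukemic MEP 1 and 2 lay below all control MEP libraries in 35 members (45.5%), against 25.6% of tested genes. The count of 31 was 17 without control MEP 2 and 19 without control MEP 3 (8.08% and 7.91% of tested genes called lower). The summed granulocyte markers in leukemic MEP 3 and its depth, given above, moved with its low members, and their part in the result was not tested. Under each of the 24 other settings tried, 12 members were called lower: Mrpl3, Mrpl9, Mrpl12, Mrpl19, Mrpl37, Mrpl49, Mrpl50, Mrps2, Mrps5, Mrps18b, Mrps22 and Mrps31.

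By subunit, 19 of 50 proteins of the large subunit (38%) and 12 of 26 of the small subunit (46.2%) fell, with median changes of -0.84 and -0.74. Of all tested genes 12.3% were called lower, with and without leukemic MEP 3, the share to set beside each count here. These counts were 15 and 9 without leukemic MEP 3, and the medians of -0.48 and -0.55 stood in the opposite order. Of the large subunit proteins with a bacterial counterpart 13 of 30 fell (median -0.92), and of those specific to mitochondria 6 of 20 (median -0.80). In the small subunit 6 of 16 with a bacterial counterpart fell (median -0.68) and 6 of 10 specific ones (median -0.86). The counts of these 4 groups were 10, 5, 4 and 5 without leukemic MEP 3, and the medians -0.56, -0.39, -0.33 and -0.704. Whether these groups differed was not tested. The stalk that recruits translation factors had 1 of 4 measured genes lower (Mrpl12), the mouth of the exit tunnel 1 of 6 (Mrpl47) and the central protuberance 3 of 8. These lists are too short to tell their shares (25%, 16.7% and 37.5%) from the 12.3% of all tested genes. The stalk and the tunnel mouth had the same counts without leukemic MEP 3 and the central protuberance had 2, its median moving from -0.86 to -0.42. By abundance, 11 of 25 members with the lowest means fell, 10 of 27 in the middle and 10 of 25 with the highest, and 10, 7 and 7 without leukemic MEP 3.

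Among large subunit proteins, Mrpl12 forms the stalk and is known to bind the mitochondrial RNA polymerase as well. It was at 323, 514 and 349 FPKM in control MEP and at 197, 152 and 88.2 in leukemic MEP. All leukemic libraries lay below all controls, and Mrpl12 fell by 1.48 ± 0.29 (adjusted p = 0.00328). Over 24 other settings its change ran from -1.73 to -0.98. Mrpl50, printed above, was at 105, 107 and 113 FPKM in control MEP and at 42.1, 55.3 and 27.9 in leukemic MEP. The control libraries were close together, the groups did not overlap, and Mrpl50 fell by 1.40 ± 0.27 (adjusted p = 0.00271). Its change ran from -1.63 to -1.15 over the other settings. Mrpl37, found in mitochondria only, was at 196, 272 and 231 FPKM and at 102, 108 and 85.1. Its groups lay apart, and it fell by 1.23 ± 0.24 (adjusted p = 0.00276). Mrpl9, a protein with a bacterial counterpart, was at 70.8, 70.6 and 66.6 FPKM and at 37.1, 31.7 and 30.4. It varied least of all members within control MEP, by 3.43% of its mean, and fell by 1.05 ± 0.21 (adjusted p = 0.00311).

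Mrpl28 fell by 1.22 ± 0.29 (adjusted p = 0.00859) and Mrpl18 by 0.92 ± 0.26 (adjusted p = 0.0216), from the levels given above. Over 24 other settings their changes ran from -1.44 to -0.87 and from -1.09 to -0.62. The call of Mrpl28 was lost when only the MEP libraries were fitted (adjusted p = 0.0642), and that of Mrpl18 there and without control MEP 2 or 3 (adjusted p up to 0.0878). Mrpl3, another protein with a bacterial counterpart, was at 54.1, 68.9 and 58.5 FPKM in control MEP and at 35.5, 31.0 and 35.4 in leukemic MEP. The groups did not overlap and leukemic MEP 3 lay among its group, with a fall of 0.81 ± 0.19 (adjusted p = 0.00927). The largest fall of a member was that of Mrpl47, at the mouth of the exit tunnel, by 1.69 ± 0.38 (adjusted p = 0.00717). Mrpl47 was at 77.7, 111 and 113 FPKM in control MEP and at 39.5, 50.7 and 13.4 in leukemic MEP, lowest in leukemic MEP 3, and fell by 1.13 without that library (adjusted p = 0.00315). Mrpl45, which helps to hold the mitoribosome at the inner membrane, was at 64.6, 87.6 and 79.8 and at 54.3, 53.9 and 48.9 FPKM. Its groups did not overlap, but the change of -0.54 ± 0.21 did not pass the test (adjusted p = 0.0722). Mrpl41, specific to mitochondria, was at 28.0, 49.96 and 39.7 and at 27.7, 29.2 and 16.6 FPKM, with overlapping groups and a change of -0.66 ± 0.26 (adjusted p = 0.0843), or -0.41 without leukemic MEP 3.

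Mrps30 has the name of a small subunit protein but sits in the large subunit. It was at 116, 132 and 132 FPKM in control MEP and at 69.6, 76.4 and 28.4 in leukemic MEP. The leukemic libraries lay below the controls, leukemic MEP 3 farthest, and Mrps30 fell by 1.22 ± 0.37 (adjusted p = 0.0309), a call lost without leukemic MEP 3 (adjusted p = 0.0729) and under 7 of 24 other settings in all.

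Among small subunit proteins, Mrps22 had the smallest p of all members. It was at 40.3, 48.4 and 48.0 FPKM in control MEP and at 16.2, 18.6 and 13.4 in leukemic MEP. The groups were far apart, and Mrps22 fell by 1.46 ± 0.24 (adjusted p = 0.000869) and by 1.34 without leukemic MEP 3. Mrps31, specific to mitochondria and among the least abundant members, was at 15.6, 15.7 and 17.4 FPKM and at 8.05, 9.57 and 6.07. Its groups did not overlap, and it fell by 0.97 ± 0.24 (adjusted p = 0.0111). Mrps34, also specific to mitochondria, was at 14.8, 26.0 and 15.8 and at 12.3, 9.47 and 10.9 FPKM. Every leukemic library lay below the controls, yet the change of -0.70 ± 0.35 did not pass the test (adjusted p = 0.157). Mrps12, part of the decoding centre, was at 102, 244 and 167 FPKM and at 163, 148 and 103. The groups overlapped (change -0.25 ± 0.31, adjusted p = 0.592). Mrps36 changed by -1.17 ± 0.50 and did not pass either (adjusted p = 0.105). The changes of Mrps12 and Mrps36 were -0.05 and -0.71 without leukemic MEP 3.

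The Mrps18 family has 3 members that descend from a single bacterial protein and occupy different places: Mrps18b and Mrps18c in the small subunit, Mrps18a in the large. Mrps18c takes the place of the bacterial protein, and the other two, counted here as specific to mitochondria, sit where bacterial ribosomes have no such protein. Mrps18b fell, from 86.4, 122 and 122 FPKM in control MEP to 50.2, 42.1 and 44.5 in leukemic MEP, by 1.24 ± 0.21 (adjusted p = 0.00107). The leukemic libraries of Mrps18b were close together and far from the controls. Mrps18a was at 120, 194 and 164 FPKM and at 140, 105 and 44.6, with a change of -0.84 ± 0.35 (adjusted p = 0.0995). Mrps18c was at 86.7, 238 and 225 FPKM and at 178, 169 and 43.6, with a change of -0.60 ± 0.52 (adjusted p = 0.422). In both genes the groups overlapped, leukemic MEP 3 was far below its group and control MEP 1 was the lowest control. Without leukemic MEP 3 the changes of the family were -1.23 for Mrps18b, -0.36 for Mrps18a and 0.05 for Mrps18c. Whether the members of the family differed from each other was not tested.

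**Figure D2:**
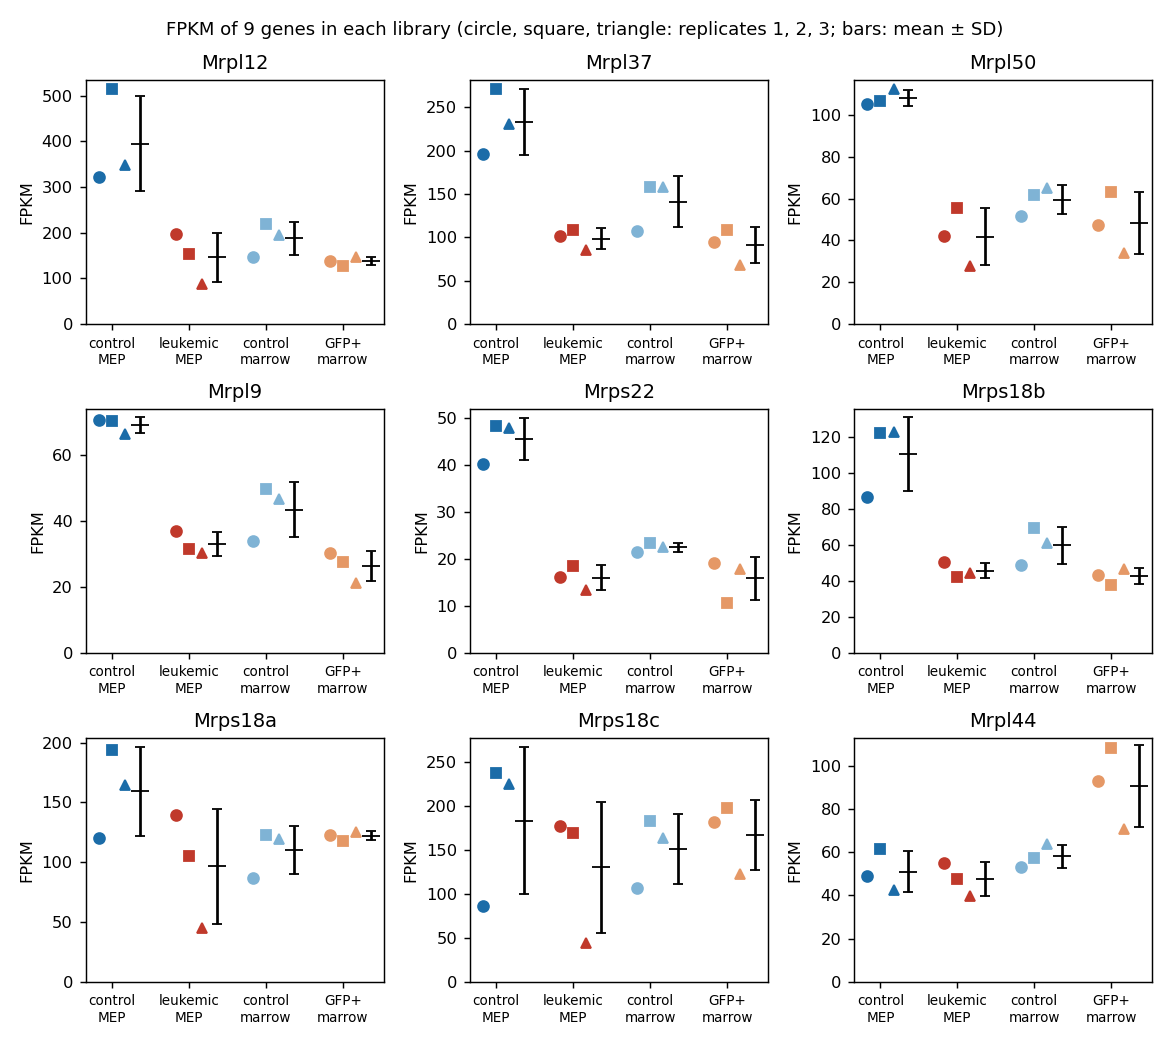
FPKM of 9 members (one panel each, axis from 0) in the 4 groups, with circles, squares and triangles for replicates 1, 2 and 3 and bars for the mean ± SD of 3 libraries. In Mrpl12, Mrpl37, Mrpl50, Mrpl9, Mrps22 and Mrps18b all control MEP libraries lie above all others, while those of Mrps18a and Mrps18c overlap other groups, and Mrpl44 is highest in GFP+ marrow (70.6 to 108).

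The 3 members with the smallest change in MEP were Mrpl44, Mrpl14 and Mrps21. Mrpl44, a protein near the exit tunnel that resembles an RNase III, was at 48.9, 61.4 and 42.6 FPKM in control MEP and at 55.2, 47.8 and 39.7 in leukemic MEP (change -0.09 ± 0.22, adjusted p = 0.79, and 0.03 without leukemic MEP 3). Mrpl14 was at 80.5, 209 and 166 FPKM and at 168, 137 and 98.5 (change -0.10 ± 0.35, adjusted p = 0.867). Its change ran from -0.50 to 0.21 over 24 other settings, none of which called it. Mrps21 was at 60.5, 160 and 112 FPKM and at 113, 84.7 and 92.4 (change -0.10 ± 0.36, adjusted p = 0.87). The groups overlapped in all 3 genes, and in Mrpl14 and Mrps21 control MEP 1 lay below every leukemic library. With all libraries, a change above 0 was measured in 3 members, Mrpl33 (0.26), Mrpl43 (0.22) and Mrpl24 (0.10), none of which passed the test. Without leukemic MEP 3 more members were above 0, since only 67 of 77 lay below.

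GFP+ marrow cells were compared with unselected control marrow, so that the groups may also differ in their mix of cell types. None of the 77 members was called by limma, 0 higher and 0 lower, where 3.02% of tested genes were called higher and 6.03% lower. An unadjusted p below 0.05 was reached by 5 members lower and 1 higher (23.9% of tested genes in either direction). Of 11462 tested genes, 1598 were lower at that p and 1142 higher. Voom on whole reads called 1 member lower and 0 higher (9.62% and 7.01% of tested genes). The median change was -0.16 against -0.05 for all tested genes, with 57 of 77 below 0 (53.4% of tested genes). Every GFP+ library lay below every control library in 11 members (14.3%, against 19.6% of tested genes) and above in 5 (6.49%, against 17.6%). Without leukemic MEP 3, whose spread enters the common fit, 3 members were called lower (10.5% of tested genes) and 1 higher (8.28%).

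Mrpl44, which did not pass the test in either population, was the member above 0 with an unadjusted p of 0.016 in marrow. It was at 53.3, 57.2 and 63.8 FPKM in control marrow and at 93.1, 108 and 70.6 in GFP+ marrow. The GFP+ libraries all lay above the controls, with a change of 0.62 ± 0.22 (adjusted p = 0.111), and Mrpl44 was the member called higher without leukemic MEP 3. Mrpl9 had the smallest adjusted p in marrow. It was at 34.0, 49.7 and 46.9 FPKM in control marrow and at 30.3, 27.7 and 21.3 in GFP+ marrow, with no overlap and a change of -0.69 ± 0.21 (adjusted p = 0.0577).

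The genes that fell most clearly in MEP showed smaller changes in marrow, none of which passed the test. Their choice by the change in MEP favours a smaller change in marrow. Mrps22 was at 21.5, 23.4 and 22.6 FPKM in control marrow and at 19.2, 10.6 and 17.8 in GFP+ marrow (change -0.52 ± 0.24, adjusted p = 0.205). Mrps18b was at 48.8, 69.1 and 61.0 FPKM and at 43.3, 37.8 and 46.6 (change -0.47 ± 0.21, adjusted p = 0.192). Mrpl37 was at 107, 158 and 158 FPKM and at 94.8, 109 and 68.4 (change -0.63 ± 0.24, adjusted p = 0.128). In Mrps22 and Mrps18b the GFP+ libraries lay below the controls, and in Mrpl37 GFP+ marrow 2 lay above control marrow 1. Mrpl12 was at 147, 219 and 195 and at 138, 128 and 147 FPKM (change -0.43 ± 0.29, adjusted p = 0.417), the highest GFP+ and the lowest control value nearly equal. Mrpl50 was at 51.6, 61.8 and 65.3 and at 47.6, 63.4 and 34.1 FPKM (change -0.33 ± 0.27, adjusted p = 0.497), with overlapping groups. Mrps17, Mrps21 and Mrps25 changed least in marrow, by 0.01, -0.01 and 0.01, from means of 117 ± 21.0, 93.5 ± 33.0 and 12.53 ± 2.55 FPKM (SD, n = 3) in control marrow. Their changes in MEP were -0.71 ± 0.34, -0.10 ± 0.36 and -0.53 ± 0.28, and none passed the test.

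The difference between the changes in MEP and in marrow was tested as an interaction. None of the 77 members was called by limma, 0 higher and 0 lower, where 4.52% of tested genes were called higher and 0.366% lower. Voom called 0 too, against 6.94% of tested genes higher and 0.846% lower. An unadjusted p below 0.05 was reached by 17 members, all lower (17.6% of tested genes in either direction). Of 11462 tested genes, 602 were lower at that p and 1410 higher. The median difference was -0.63, against 0.04 for all tested genes, and 74 of 77 members were below 0 and 3 above, against 48.1% and 51.9% of tested genes. The median difference was -0.33 without leukemic MEP 3 (72 below 0), -0.38 with equal FPKM totals and -0.37 with quantile normalization. The medians of all tested genes under these settings were 0.04, 0.25 and -0.15, so members lay closer to all genes with quantile normalization. In all 31 members that fell in MEP, the change in marrow was smaller in size. These were chosen by their change in MEP, which favours that outcome, so it does not show a difference. Mrps31 had the smallest adjusted p, with a difference of -1.06 ± 0.34 (adjusted p = 0.112). It fell in MEP and was at 9.78, 10.04 and 10.05 FPKM in control marrow and at 11.7, 12.9 and 8.01 in GFP+ marrow. The difference for Mrps22 was -0.94 ± 0.33 (adjusted p = 0.159) and for Mrpl50 -1.07 ± 0.38 (adjusted p = 0.16). No single member was thus shown to differ between MEP and marrow.

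**Figure D3:**
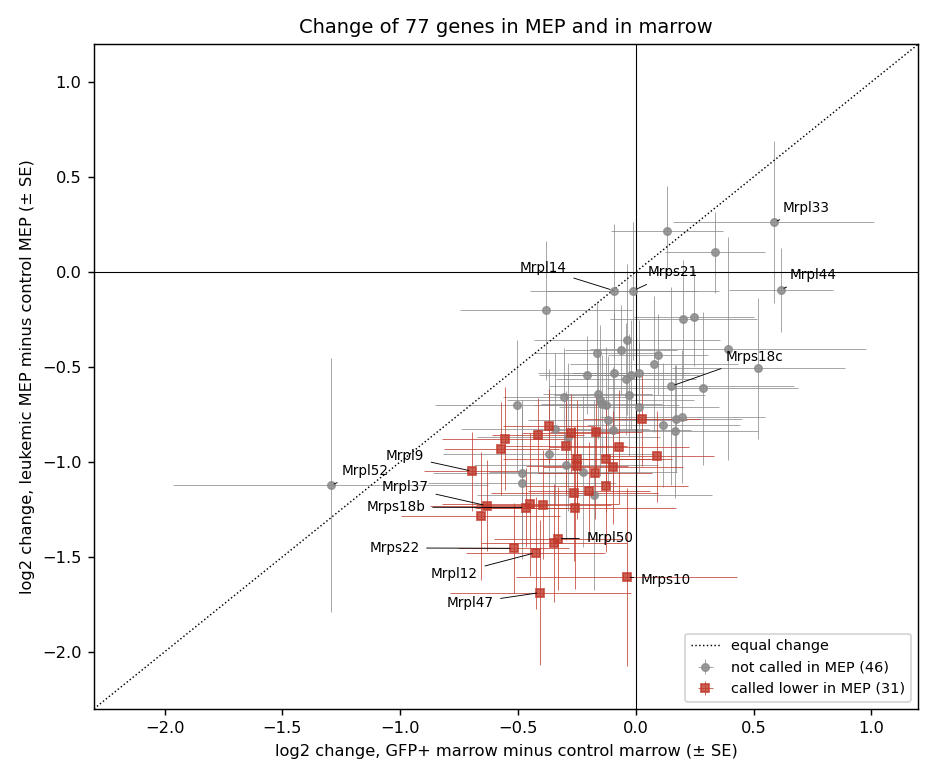
Change of each of 77 members in marrow (horizontal axis, log2, GFP+ minus control) against its change in MEP (vertical axis, log2, leukemic minus control), with bars of ± SE; red squares are the 31 members called lower in MEP and grey circles the other 46. Nearly all points lie below the dotted line of equal change, 74 of 77, and the squares lie at or below -0.78 on the vertical axis.

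Control MEP were compared with control marrow to place the normal progenitors against the tissue they come from. This comparison shares the control libraries of the comparisons above, so that a low or high control library enters each. Members were mostly higher in control MEP: 75 of 77 differences were above 0 (51.7% of tested genes), and 5 members were called higher (6.49%, against 2.63% of tested genes) and 0 lower (12.3% of tested genes). The median difference was 0.59, a 1.5-fold higher level, against 0.03 for all tested genes. An unadjusted p below 0.05 was reached by 25 members, all higher (27.4% of tested genes in either direction). Of 11462 tested genes, 1069 were higher at that p and 2071 lower. Every control MEP library lay above every control marrow library in 37 members (48.1%, against 20.3% of tested genes) and below in 0 (26.1%). The 5 called members were Mrps18b (0.87 ± 0.21, adjusted p = 0.0129), Mrps22 (0.98 ± 0.24, adjusted p = 0.0136), Mrpl12 (1.06 ± 0.29, adjusted p = 0.0289), Mrpl3 (0.64 ± 0.19, adjusted p = 0.0431) and Mrpl9 (0.68 ± 0.21, adjusted p = 0.0456), from the levels given above. Mrpl3 was at 38.8, 43.6 and 33.1 FPKM in control marrow and at 27.4, 34.8 and 26.6 in GFP+ marrow. All 5 also fell in leukemic MEP, in a comparison that uses the same control MEP libraries. The calls of Mrpl3 and Mrpl9 between the controls were lost under 11 and 12 of 24 other settings, the replicate block among them. The count of 5 rested on single libraries. It was 0 without control MEP 2, control MEP 3 or control marrow 1 (0.954%, 1.07% and 0.566% of tested genes called higher). It was 1 without control marrow 3 (0.892%). It was 3 without control marrow 2, leukemic MEP 1 or GFP+ marrow 1 (1.01%, 2.53% and 2.16%). It was 8 without control MEP 1 or leukemic MEP 2 (1.97% and 2.91%) and 10 without GFP+ marrow 3 (3.86%). It was 23 without leukemic MEP 3 (7.41% of tested genes called higher and 17.1% lower), and voom called 20 (7.07%).

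Other genes of mitochondrial translation were taken from lists chosen for their function. Of 6 measured mitoribosomal proteins or partners with other names, 3 fell in leukemic MEP and 0 rose, where 12.3% of all tested genes were called lower, and 2 fell without leukemic MEP 3. Dap3, a GTP-binding protein of the small subunit, was at 69.6, 74.9 and 70.4 FPKM in control MEP and at 26.3, 28.4 and 19.5 in leukemic MEP. Its groups were far apart, and it fell by 1.51 ± 0.20 (adjusted p = 0.000204). Ptcd3, an RNA-binding protein of the small subunit, was at 68.9, 43.6 and 49.2 and at 11.3, 20.2 and 21.5 FPKM, without overlap, and fell by 1.58 ± 0.28 (adjusted p = 0.0015). It was also called lower in marrow, from 36.1, 32.0 and 33.3 FPKM in control marrow to 12.6, 15.96 and 20.5 in GFP+ marrow, with a change of -1.03 ± 0.28 (adjusted p = 0.038). The marrow groups of Ptcd3 did not overlap, but the call was lost with the replicate block and under 7 of 24 other settings in all, with an adjusted p of up to 0.131. Gadd45gip1, of the large subunit, fell by 1.07 ± 0.34 (adjusted p = 0.0337), a call lost without leukemic MEP 3 and under 8 of 24 other settings in all. Chchd1 (-0.21), Aurkaip1 (-0.49) and the membrane insertase Oxa1l (-0.41) did not pass the test, and without leukemic MEP 3 their changes were 0.11, -0.12 and -0.26.

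Of 12 translation factors 3 fell in leukemic MEP (25%, against 12.3% of all tested genes) and 0 rose, with a median change of -0.39. Gfm1, the elongation factor that moves the ribosome along, was at 69.8, 40.9 and 48.2 FPKM in control MEP and at 18.4, 22.0 and 17.4 in leukemic MEP. The groups did not overlap, and Gfm1 fell by 1.38 ± 0.22 (adjusted p = 0.000706). Tufm, which delivers charged tRNA, fell by 1.40 ± 0.37 (adjusted p = 0.015) and Tsfm, its exchange factor, by 1.21 ± 0.25 (adjusted p = 0.00419). The call of Tufm was lost without control MEP 2 (adjusted p up to 0.0593 over the other settings). Of 20 enzymes that charge mitochondrial tRNA 6 fell (30%) and 0 rose (median -0.75), among them Tars2 (-1.06 ± 0.19), Rars2 (-1.17 ± 0.22) and Mars2 (-1.01 ± 0.24), which attach threonine, arginine and methionine. Of 26 factors of assembly and rRNA modification 7 fell (26.9%) and 0 rose (median -0.59). Fastkd2, an RNA-binding protein of mitochondrial RNA granules, was at 51.0, 33.1 and 45.9 FPKM in control MEP and at 8.14, 14.3 and 11.7 in leukemic MEP, and fell by 1.85 ± 0.31 (adjusted p = 0.00112). Mpv17l2 fell by 1.63 ± 0.31 and the rRNA methyltransferase gene Mrm3 by 1.503 ± 0.37. Of 23 measured factors of mitochondrial DNA and RNA 6 fell (26.1%) and 0 rose (median -0.53), among them the exonuclease gene Mgme1 (-1.01 ± 0.22), the coactivator gene Pprc1 (-1.28 ± 0.29) and the RNA-degrading enzyme gene Pnpt1 (-1.23 ± 0.36). The call of Pnpt1 was lost under 5 of 24 other settings, among them those without control MEP 1, control MEP 3 or leukemic MEP 1. Without leukemic MEP 3 these 4 lists, in the order given, had 3, 5, 5 and 5 genes called lower, against 12.3% of tested genes, and medians of -0.37, -0.68, -0.46 and -0.59.

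In marrow 1 gene was called lower in each of 4 of these lists: Ptcd3, Tars2 (-0.68 ± 0.19), the rRNA methyltransferase gene Mrm1 (-1.48 ± 0.35) and Pprc1 (-1.01 ± 0.29). With 6.03% of all tested genes called lower in marrow, 1 gene of 20, 26 or 23 is below that share. The call of Tars2 was lost under 15 of 24 other settings, that of Pprc1 under 12 and that of Mrm1 under 3, the replicate block among those for Tars2 and Pprc1. Each was lost when any 1 control marrow library was left out. The list of translation factors had 0, with 4 of 12 genes, all lower, at an unadjusted p below 0.05. Of 11462 tested genes, 1598 were lower at that p in marrow and 1142 higher. Between control MEP and control marrow, Dap3, Gfm1, Tars2 and the assembly GTPase genes Eral1 and Mtg1 were called higher in control MEP, where 2.63% of all tested genes were. These calls were lost under 11 of 24 other settings for Tars2, 9 for Mtg1, 6 for Gfm1, 5 for Eral1 and 1 for Dap3, the replicate block among those for Tars2 and Mtg1. A search of the deposited symbols for genes encoded by mitochondrial DNA found 0. These genes, which the mitoribosome translates, could therefore not be analysed here.

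Ribosomal proteins of the cytosol and nuclear subunits of oxidative phosphorylation gave a comparison for the members in leukemic against control MEP. Of 82 tested cytosolic ribosomal proteins 7 were called lower (8.54%) and 0 higher, with a median of -0.29, where 12.3% of all tested genes were called lower. Of 80 tested oxidative phosphorylation subunits 16 were called lower (20%) and 0 higher, with a median of -0.59. Members stood at 40.3% and -0.83. Without leukemic MEP 3, 5 cytosolic ribosomal proteins were called lower (median -0.26), 12 oxidative phosphorylation subunits (15%, median -0.303) and 24 members (31.2%, median -0.50), and whether the lists differed was not tested. Both lists were also low in control MEP 1, at a median log2(FPKM + 1) of 5.73 and 7.45, against up to 6.58 and 8.74 in the other control MEP libraries. Members were at 6.15, 6.84 and 6.68 on that scale in control MEP 1, 2 and 3.

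**Figure D4:**
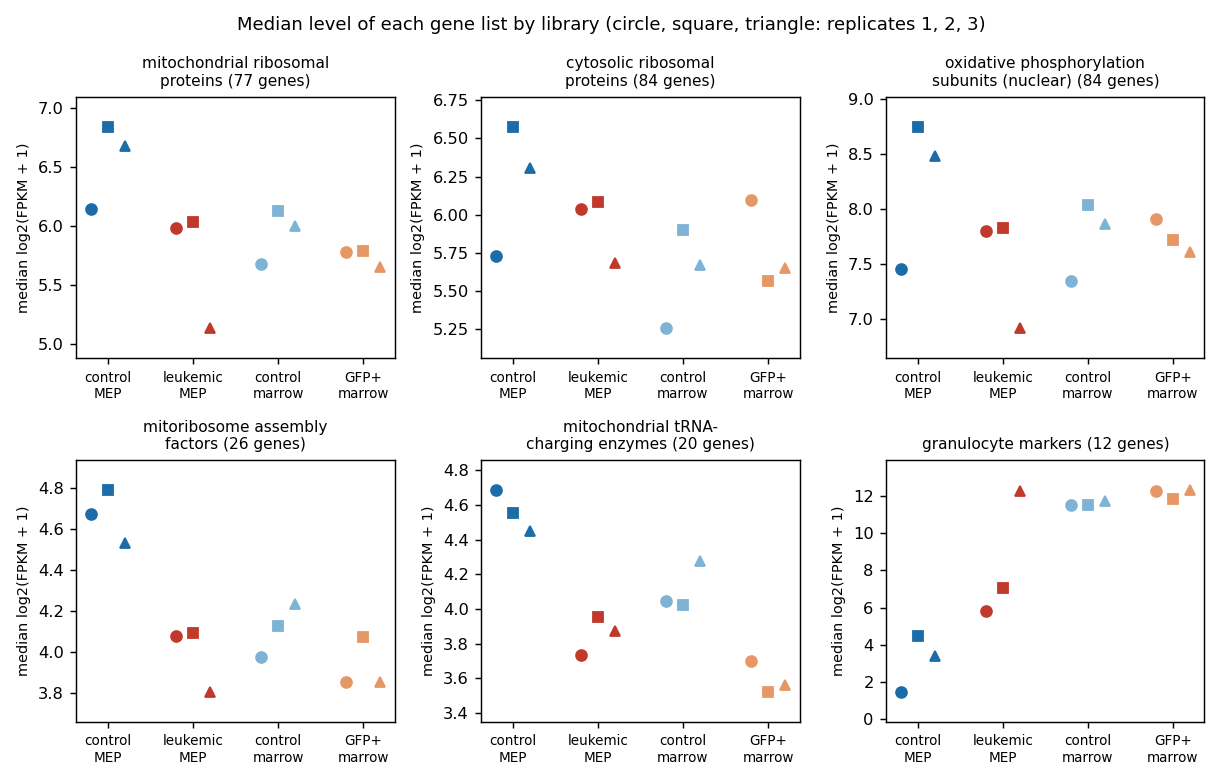
Median log2(FPKM + 1) of 6 gene lists (panels, each with its own vertical axis that does not start at 0) in each library, grouped and marked as in the legend of the title. Members, tRNA-charging enzymes and assembly factors are highest in the 3 control MEP libraries, cytosolic ribosomal proteins overlap between groups, and the granulocyte markers of leukemic MEP 3 (12.3) lie with the marrow libraries (11.5 to 12.3).

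All 77 members had a position in RefSeq (GRCm38), on 17 chromosomes, with 11 on chromosome 11 and 8 on chromosome 17. The start of another protein-coding gene lay on the opposite strand within 1000 bases of the start of 33 members (42.9%), against 17.8% of 10730 tested protein-coding genes. Several such partners serve mitochondria: Mrpl46 is paired with Mrps11, Mrps12 with the tRNA-charging enzyme gene Sars2, Mrpl36 with Ndufs6 and Mrpl47 with Ndufb5, both of respiratory complex I, and Mrpl43 with the helicase gene Twnk. Of 30 tested partners 7 were called lower, Mrpl46 among them, and 2 higher in leukemic MEP (23.3% and 6.67%, against 12.3% and 13.7% of all tested genes), the latter Klc4, beside Mrpl2, and Rab6a, beside Mrpl48. Of the 12 tested partners of members that fell, 2 were called lower (16.7%) and 1 higher (8.33%). Ppp1r10, whose start lies 45 bases from that of Mrps18b, changed by -0.13 (adjusted p = 0.795), and Zfp189, 83 bases from Mrpl50, by 0.35 (adjusted p = 0.658). Wdfy1, beside Mrpl44, fell by 1.52 (adjusted p = 0.00392), where Mrpl44 changed by -0.09.

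In the GENCODE annotation of GRCm38, which also gave the starts above, exons of 25 members overlap those of another gene, in 14 of them over at least 10% of exon bases, and the library kit does not mark the strand, so reads of the overlap cannot be told apart. Mrps18b (chromosome 17, 35910380 to 35916440) shares 59.1% of its exon bases with the antisense gene Gm16279. Mrpl12 (chromosome 11, 120484637 to 120488754) shares 15.2% with Gm16755, and Mrps30 18.1% with B430218F22Rik. None of these 3 neighbours is in the table. Mrpl47 shares 13.4% with Actl6a, whose mean went from 233 FPKM in control MEP to 122 in leukemic MEP (adjusted p = 0.0221). Mrps25 shares 58.2% with Nr2c2, which averaged 2.24 FPKM in control and 4.24 in leukemic MEP. Mrps22 (chromosome 9, 98588730 to 98601679), Mrpl50 (chromosome 4, 49512597 to 49521083) and Mrpl37 (chromosome 4, 107055874 to 107066866) share none.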

How the data were processed

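The deposited table gives FPKM, computed by the authors, for 24107 genes in 12 libraries. Per the submitters' processing notes, the tools were CASAVA, bcl2fastq, STAR 2.5.3a and DESeq2 1.18.1, with build mm10. The sources used here name no gene annotation and no read counter. Per the labels' protocols, libraries were made from sorted cells with Smart-seq2 and Nextera XT. The values of all 16728 genes above 0 came out as whole reads (tolerance 0.02). They gave 0.572 to 9.71 M reads a library and a precision that is lowest in leukemic MEP 3. The factor of each library was not its total but the median ratio of its reads to each gene's mean over libraries (relative spread 4.9e-12). Such scaling holds the median gene level between libraries, so medians of all tested genes near 0 follow largely from it.

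Genes with at least 1 FPKM in at least 3 libraries (11462) were tested with limma-trend (limma 3.58.1, R 4.3.3) on log2(FPKM + 1), with 4 groups in 1 fit, and called at a Benjamini-Hochberg adjusted p below 0.05. With 3 libraries against 3, an exact 2-sided permutation test cannot go below p = 0.1. The script was tested on simulated data. Counts and figures used Python 3.11.15, numpy 2.4.6, pandas 2.3.3 and matplotlib 3.10.9. Alternatives were other pseudocounts, filters, scalings, variance models, a replicate block, voom and each library left out.

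Members with values in every library were the 3 highest, the 3 lowest, the 6 with the smallest p among called members in each comparison, the 3 least changed, and 12 fixed genes. Other members named were chosen after their values were seen. From other lists, all genes of lists of 8 or fewer and otherwise the 3 with the smallest p were used. Members and lists were chosen with earlier results of these data known. Protein sequences were not used here.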

Additional observations from a re-analysis of the deposited data

How the results depend on the processing

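In MEP, 31 members were called lower, and 22 to 32 under 10 of the settings that kept all libraries or left out both shallow ones. The exceptions were 12 with only the MEP libraries fitted and 53 with array weights, and 17 to 38 members were called with 1 library left out. No setting called a member higher. In marrow the count of lower calls was 1 without a filter, 3 with equal FPKM totals and 1 with quantile normalization. Of all tested genes, 4.95%, 7.36% and 5.25% were called lower there. The count was 2 with the marrow libraries alone and 1 with voom (8.27% and 9.62% of tested genes). With array weights it was 9 (16.6%), and 1 member was called higher (13.5%). Without both shallow libraries, a setting chosen after seeing the data, it was 2 (9.51%). With 1 library left out, 0 to 3 were called lower (2.43% to 10.5%) and 0 to 1 higher (0.962% to 8.28%). For the difference of changes the count of lower calls was 17 with array weights (8.76%) and 1 without both shallow libraries (1.55%). With 1 library left out it was 0 to 1 (0.0265% to 1.86%). In controls the count of higher calls was 19 with equal totals and 24 with the control libraries alone (5.16% and 10.9% of tested genes). It was 3 without a variance trend (2.10%), 20 with voom (7.07%) and 23 without both shallow libraries (7.72%). With array weights it was 65 (21.6%), and 1 member was called lower (26.5%). With 1 library left out it was 0 to 23 (0.566% to 7.41%). The cause of these shifts was not tested.

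Equal totals moved the median of all genes to -0.25 in marrow, 0.25 for the difference and 0.18 in controls, and quantile normalization moved the latter pair to -0.15 and 0.26. The members' median in MEP was -0.81 and -0.63 under these scalings. The labels do not say that replicate numbers pair the libraries. Same-numbered libraries correlated at -0.157, -0.052 and -0.153 for control and leukemic MEP and at 0.017, -0.062 and 0.02 for the marrow groups. For the controls the values were 0.497, 0.285 and 0.073, the first 2 of them the best for their library. For the Prdm16s groups they were 0.086, 0.215 and 0.149, and each library correlated best with its own number (at most 0.061 with others). Xist, given above, was likewise high in replicates 1 and 2 and not 3 of both Prdm16s groups. Whether libraries of the same number share a mouse is not stated, and the main fit did not pair them. With the replicate block, 29 members were called lower in MEP (11.6% of tested genes) and 4 higher in controls (2.09%). It called 0 in marrow (5.54% of tested genes lower, 2.59% higher) and 0 for the difference (0.174% lower, 4.10% higher).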
